A study of Homo sapiens with 15 samples.

Results

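The genes described are 36 enzymes and transporters of central carbohydrate metabolism: glycolysis, lactate export, the switch from pyruvate into mitochondria, the pentose phosphate pathway and glycogen. They were taken by name from a list, and all 36 had a row among the 19143 rows of the deposited count table. Gene expression was measured by RNA sequencing in an established line of human liver cancer cells, MHCC-97H, derived from a hepatocellular carcinoma. The 15 libraries fall into 5 groups of 3: the 2D, 3D and animal models, sequenced in a first round, and, in an additional round, untreated cells of the 3D model (3D control) and heat-treated cells of the 3D model (3D heat). Every group carries the same cell line, and the labels list no other treatment and no genetic change. The first round asked how the models differ in their transcriptomes, and the second how cells in the 3D model respond to heat. The labels give no temperature, heating time, culture age, matrix or host animal. They number the libraries of a group as biological replicates without saying that these were separate cultures or animals, so the p-values measure the spread between these libraries, which may be technical.

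Glycolysis splits glucose into pyruvate in the cytosol and yields a little ATP without oxygen. Pyruvate is then reduced to lactate by lactate dehydrogenase and exported, or oxidised in mitochondria by the pyruvate dehydrogenase complex, which the PDK kinases switch off by phosphorylation. Glucose 6-phosphate can also leave for the pentose phosphate pathway, which makes NADPH and ribose, or for glycogen. Many steps have several isoforms with their own genes, and tumour cells mostly use HK2 or HK1, ALDOA and PKM. The hypoxia-inducible factors, which bind the letters ACGTG or GCGTG, are textbook activators of many glycolytic genes.

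The RefSeq promoter windows of 5 members are printed, and these members were picked by how they changed in 3D. ALDOC and ENO2 had the largest rises in 3D, PGK1 and LDHA are abundant members whose rise did not rest on single libraries, and LDHB is the dehydrogenase isoform that fell. Each window runs from 250 bases before to 50 bases after a start site, in GRCh38.p14, in the direction of the gene. The count table was made on hg19, per the submitters' processing notes, and gives no coordinates. Capitals mark ACGTG or GCGTG on either strand, and overlapping matches run together (CACGTG holds ACGTG once on each strand).
ALDOC (chr17:28576846-28577145, minus strand): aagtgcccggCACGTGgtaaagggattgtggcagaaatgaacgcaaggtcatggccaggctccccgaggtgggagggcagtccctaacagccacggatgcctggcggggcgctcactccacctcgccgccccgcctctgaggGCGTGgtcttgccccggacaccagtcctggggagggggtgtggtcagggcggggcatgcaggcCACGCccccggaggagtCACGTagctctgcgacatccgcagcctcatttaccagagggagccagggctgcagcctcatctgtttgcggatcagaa
ENO2 (chr12:6914330-6914629, plus strand): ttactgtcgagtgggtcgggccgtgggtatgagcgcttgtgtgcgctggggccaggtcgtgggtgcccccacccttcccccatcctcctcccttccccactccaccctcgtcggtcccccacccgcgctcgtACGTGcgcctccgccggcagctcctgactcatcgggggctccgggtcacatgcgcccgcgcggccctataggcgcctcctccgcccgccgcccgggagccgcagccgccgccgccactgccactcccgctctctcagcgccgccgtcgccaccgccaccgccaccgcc
PGK1 (chrX:78103998-78104297, plus strand): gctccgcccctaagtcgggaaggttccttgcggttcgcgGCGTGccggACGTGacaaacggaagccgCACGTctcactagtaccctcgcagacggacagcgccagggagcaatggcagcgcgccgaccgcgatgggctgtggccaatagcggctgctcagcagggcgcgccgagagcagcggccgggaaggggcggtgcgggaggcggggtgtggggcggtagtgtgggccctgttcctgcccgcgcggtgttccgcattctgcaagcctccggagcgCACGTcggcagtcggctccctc
LDHA, the upstream one of its 2 windows (chr11:18394313-18394612, plus strand): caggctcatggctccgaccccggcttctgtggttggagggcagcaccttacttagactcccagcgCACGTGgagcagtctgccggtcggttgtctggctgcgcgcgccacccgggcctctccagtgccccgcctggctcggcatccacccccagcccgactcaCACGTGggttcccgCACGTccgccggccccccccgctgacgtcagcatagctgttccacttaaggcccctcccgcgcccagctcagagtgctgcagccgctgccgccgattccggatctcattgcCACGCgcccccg
LDHB (chr12:21657793-21658092, minus strand): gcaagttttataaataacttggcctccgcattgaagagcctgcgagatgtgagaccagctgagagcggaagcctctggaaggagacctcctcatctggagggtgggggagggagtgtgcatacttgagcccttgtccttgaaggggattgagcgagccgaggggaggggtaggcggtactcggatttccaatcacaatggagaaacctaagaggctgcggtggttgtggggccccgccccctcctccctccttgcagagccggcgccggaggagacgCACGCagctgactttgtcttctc

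The ALDOC window held 3 matches to ACGTG and 2 to GCGTG, the PGK1 window 3 and 1, the printed LDHA window 5 and 1, the ENO2 window 1 and 0, and the LDHB window 0 and 1. The LDHA window that is not printed held 0 and 1. Of other windows not printed, that of PGM2, which fell in 3D, held 3 and 1. That of PGAM1, which rose, held 0 and 0. The windows of HK2, which was low in all libraries, held 2 and 1, and 4 and 2. Whether the matches go with the changes in 3D was not tested. RefSeq had 66 windows for 34 of the 36 members, with no entry for SLC2A3 and SLC16A1. At least 1 match to either motif was present in 60.6% of the members' windows and in 48.4% of all 35116 windows of the same length. ACGTG alone was present in 37.9% of the members' windows against 21.4% of all, and GCGTG alone in 42.4% against 36.5%. The members' windows were also richer in G and C, with a median of 68.3% against 58.7%, and no comparison with windows of the same base composition was made. A match is a run of letters and not a measured binding site.

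The libraries held 12605539 to 18634295 counts each, and levels are given in CPM (counts scaled to a common library size, with TMM factors over the 15 libraries). No pair of libraries of a group agreed within sampling noise. 3D replicates 1 and 2 and 3D heat replicate 1 stood apart from the other 12. Their TMM factors were 0.737, 0.738 and 0.655 against 0.980 to 1.28 elsewhere. Their departure from the mean of the 2D libraries followed transcript GC content (rank correlation across genes of 0.711, 0.800 and 0.597, against -0.190 to 0.228 elsewhere). It also followed transcript length (-0.462, -0.415 and -0.464, against -0.141 to 0.254 elsewhere). A 2D library was set against the mean of the other 2D libraries. The members are moderately GC-rich, with a median transcript GC of 53.1% against 48.8% of the genes tested, and 24 of the 36 lay above the tested median. Most counts that rest on these libraries are therefore given both ways, and a few as medians. Called fold changes of members that move by over 1.5 times without them are given both ways too. A fit with an offset for GC content is given for the counts. Among markers of the line, KRT8, KRT18 and the liver factor HNF4A were present in every library, while GPC3 did not pass 0.272 CPM, EPCAM 1.36 CPM and AFP 16.2 CPM in any library.

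Together the members took 1.77 to 1.82% of all counts in 2D, 3.68, 3.56 and 2.64% in the 3D libraries, 1.79 to 1.87% in the animal model, 2.29 to 2.40% in 3D control and 2.17, 1.68 and 1.21% in 3D heat. The share was thus higher in each untreated 3D library of both rounds than in any 2D or animal library, and it spread widely among the heat-treated libraries.

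**Figure D1:**
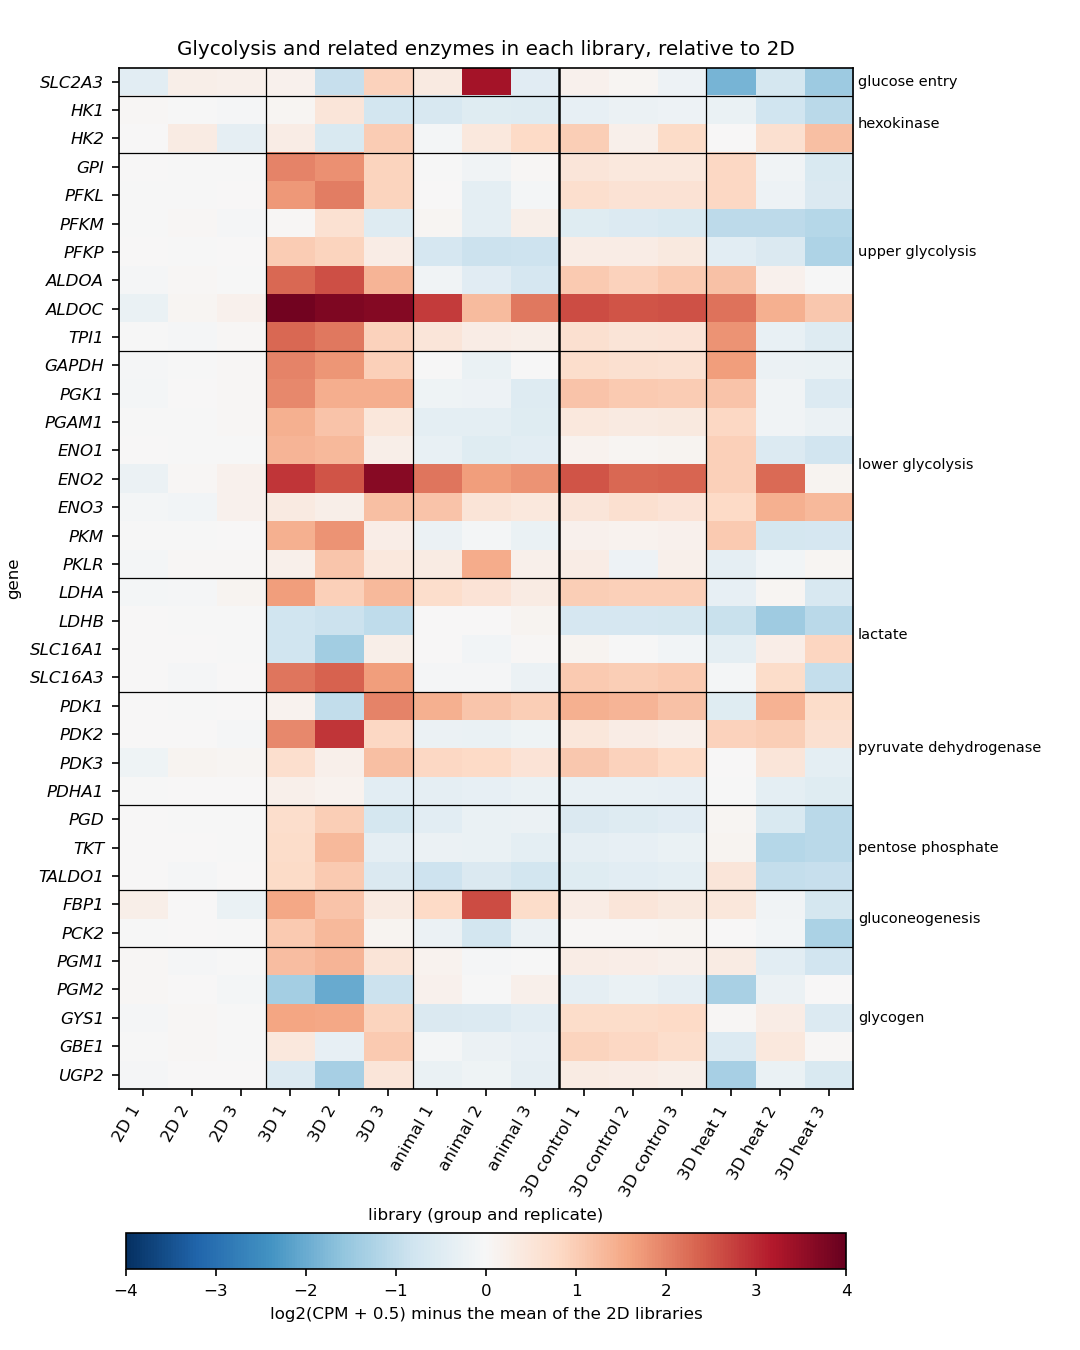
Colour shows log2(CPM + 0.5) of each of the 36 members (rows, grouped by role) in each of the 15 libraries (columns) minus the mean of the 2D libraries, with the later sequencing round to the right of the heavy line. ALDOC and ENO2 are on average the darkest rows in 3D, though not in each 3D library, and stay red in the animal and 3D control libraries. 3D replicates 1 and 2 differ from 3D replicate 3 in the pentose phosphate rows and in PDK1 and PDK2.

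In 3D against 2D, 17 of the 35 tested members were higher and 2 were lower at an adjusted p below 0.05 (edgeR quasi-likelihood test, 3 libraries a group), with a median log2 fold change of 0.91 against 0.03 over all genes tested. Across all genes, 20% were called higher and 12.9% lower. With 3D replicate 3 as the only 3D library, 20 of 36 were higher and 7 lower, with a median of 0.88, against 22.9% and 23.6% of all genes. The single library is assumed there to vary like the other groups. PKLR was too low to be tested with all 3 libraries. The 17 were ALDOC, ENO2, ALDOA, PDK2, SLC16A3, TPI1, GPI, PFKL, GAPDH, PGK1, GYS1, LDHA, PKM, PGM1, PGAM1, ENO1 and PFKP, and LDHB and PGM2 were the 2 that fell. Of the 17, ENO1 and PKM were not called on 3D replicate 3 alone, nor when 3D replicate 1, 3D replicate 2 or any single 2D library was left out. PFKP lost its call without 3D replicate 1 or any single 2D library, and PGAM1 without 2D replicate 1 or 2D replicate 2.

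In the animal model against 2D, 2 of 35 members were higher (ALDOC and ENO2) and 1 was lower (PFKP), with a median log2 fold change of -0.11, where 7.78% of all genes were called higher and 4.25% lower. Against 3D, in the same model, 2 members were higher (LDHB and PGM2) and 20 were lower, with a median log2 fold change of -1.01, where 18.6% of all genes were called higher and 22.9% lower. Without 3D replicates 1 and 2, 3 were higher and 22 lower, against 24.6% and 22.5% of all genes, with a median of -0.62. The median was -0.45 with the GC offset. LDHA lost its lower call against 3D without 3D replicate 1 or any single animal library, ENO2 without animal replicate 2 or animal replicate 3, and with the GC offset ALDOC, ENO1, ENO2, TKT, TALDO1 and PCK2 were not called there. These comparisons share libraries with each other and with 3D against 2D, so their values for a member are not independent. Where libraries of first-round groups are said not to overlap, the share of all genes that do the same is not given. Such statements are description only.

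In 3D control against 2D, fitted over all 15 libraries, 2 members were higher (ALDOC and ENO2) and 0 lower by edgeR, where 0.93% of all genes were called higher and 0.00756% lower. At an unadjusted p below 0.05, 10 members were higher and 2 lower, where 10.4% of all genes passed in either direction. DESeq2 called 4 members higher and 1 lower, against 2.94% and 0.801% of all genes. Libraries of the 2 groups did not overlap for 24 members that were higher and 8 that were lower in 3D control, against 32.2% and 33.1% of all genes. The groups come from different sequencing rounds, so the round and the culture model cannot be told apart here.

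In 3D heat against 3D control, no member was called by edgeR in either direction, where 0.00792% of all genes were called higher and 0.0158% lower. At an unadjusted p below 0.05, 0 members were higher and 9 lower, where 20.8% of all genes passed in either direction. DESeq2 called 0 members higher and 3 lower (SLC2A3, PFKP and LDHA), against 6.74% and 5.46% of all genes. Without 3D heat replicate 1, edgeR called 1 member higher and 20 lower, against 14% and 14.8% of all genes. The count therefore turned on that library.

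**Figure D2:**
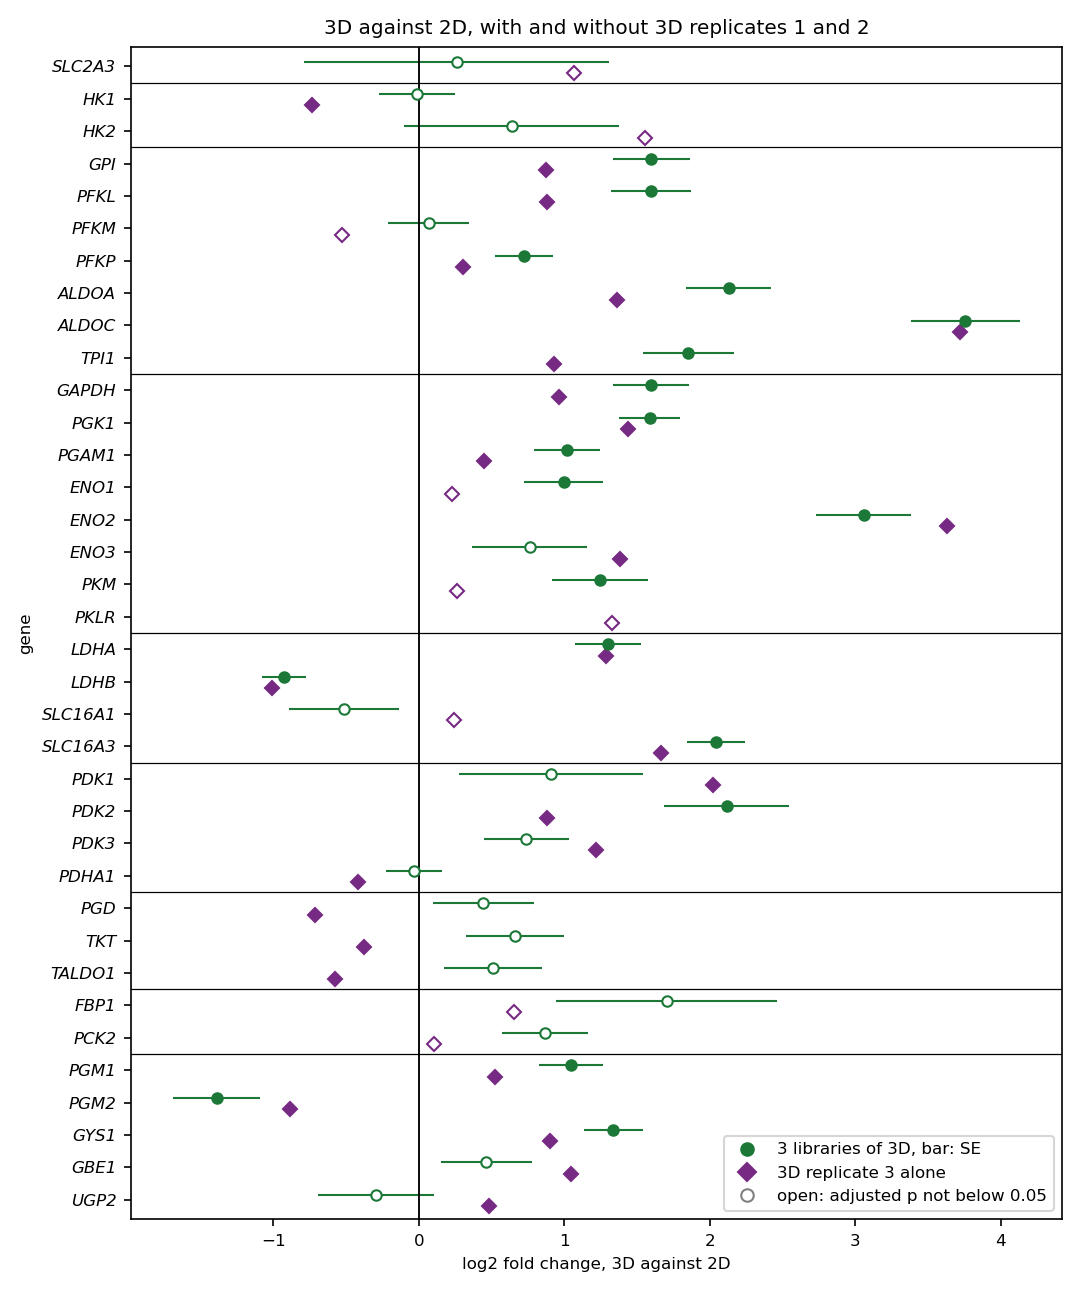
Log2 fold change of 3D against 2D for each member (rows), from the 3 libraries of 3D (circles, bars show the SE) and from 3D replicate 3 alone (diamonds), with open symbols where the adjusted p was not below 0.05. ALDOC, ENO2, LDHA, PGK1 and LDHB keep their side and their call with either symbol, while PGD, TKT and TALDO1 change side.

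Of the members for glucose entry and phosphorylation, 0 of 3 were called in any comparison with all libraries by edgeR without an offset. With the GC offset, edgeR called HK1 lower in the animal model than in 2D (-0.47, adjusted p = 0.0376). At an unadjusted p below 0.05 only SLC2A3 with heat passed, as it did in DESeq2. SLC2A3, a high-affinity glucose transporter, was read at 0.0955 to 3.62 CPM in the 12 libraries outside the animal model and at 2.29, 21.4 and 1.08 CPM in the animal libraries, where replicate 2 alone was high. HK1, the hexokinase of most tissues, was read at 236, 228 and 223 CPM in 2D and 243, 323 and 138 in 3D, 147, 164 and 159 in the animal model, 183, 195 and 201 in 3D control and 189, 131 and 107 in 3D heat. The 3D libraries lay on both sides of 2D, and on 3D replicate 3 alone HK1 fell by 0.74 on the log2 scale (adjusted p = 0.000846). HK2, the hexokinase usually raised in tumours, did not pass 1.77 CPM in any library. Per kb of transcript, HK1 was at 57.3 ± 1.64 CPM in 2D and HK2 at 0.0858 ± 0.0409.

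In upper glycolysis 6 of 7 members rose in 3D, all but PFKM. GPI, which turns glucose 6-phosphate into fructose 6-phosphate, was read at 628, 614 and 619 CPM in 2D and 2482, 2187 and 1140.2 in 3D (log2 fold change 1.60 ± 0.26 SE, adjusted p = 0.00387). Every 3D library was above every 2D library, and the rise was 0.87 on 3D replicate 3 alone. TPI1, which interconverts the triose phosphates, was at 785, 767 and 809 CPM in 2D and 3886, 3416 and 1501 in 3D (1.85 ± 0.31, adjusted p = 0.00418). It too did not overlap, with replicate 3 the lowest of the 3D libraries, and it rose by 0.93 on that library alone. In the animal libraries GPI was at 612, 568 and 641 CPM and TPI1 at 1098, 960.3 and 930.4, which against 3D was a fall by 1.63 and 1.51 on the log2 scale (adjusted p = 0.00248 and 0.00617). The changes were -0.92 and -0.61 without 3D replicates 1 and 2. In 3D control GPI was at 868, 825 and 835 CPM and TPI1 at 1234, 1131 and 1158, above each 2D library and not called.

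Phosphofructokinase, the committed step, has 3 genes: PFKL (liver type), PFKM (muscle type) and PFKP (platelet type). PFKP was the most abundant per kb in every group, at 123 ± 1.29 CPM per kb in 2D against 33.1 ± 0.401 for PFKL and 25.3 ± 0.741 for PFKM. PFKL was read at 95.5, 95.9 and 97.7 CPM in 2D and 322, 404 and 178 in 3D (1.60 ± 0.28, adjusted p = 0.00449), with no overlap and a rise of 0.88 on replicate 3 alone. PFKP was read at 343, 336 and 341 CPM in 2D and 682, 631 and 420.0 in 3D (0.72 ± 0.20, adjusted p = 0.0226), also with no overlap, but the rise was 0.30 on replicate 3 alone and 0.02 with the GC offset. PFKM was read at 81.2, 84.3 and 79.6 CPM in 2D and 83.5, 124 and 56.8 in 3D, on both sides of 2D, and was not called (0.07 ± 0.28, adjusted p = 0.867). The isoforms thus moved by different amounts. The PFKM/PFKL ratio of CPM was 0.849, 0.878 and 0.814 in 2D and 0.260, 0.308 and 0.320 in 3D, and 0.379, 0.388 and 0.370 in 3D control, so that each untreated 3D library of both rounds lay below each 2D library. In the animal libraries it was 0.880, 0.849 and 1.06, within or above the 2D range.

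PFKP was the only member lower in the animal model than in 2D by edgeR, at 212, 185 and 192 CPM (-0.79 ± 0.20, adjusted p = 0.0308), and the call was lost when any single library of either group was left out. The PFKP/PFKL ratio was 3.59, 3.50 and 3.48 in 2D and lower in each library of the other groups, at 2.12, 1.56 and 2.36 in 3D, 2.15, 2.55 and 2.12 in the animal model and 2.76, 2.89 and 3.11 in 3D control. PFKL was at 98.5, 72.8 and 90.6 CPM and PFKM at 86.6, 61.7 and 96.3 in the animal libraries. Against 3D, PFKL fell by 1.74 and PFKP by 1.51 there on the log2 scale (adjusted p = 0.00229 and 0.00110), with changes of -1.04 and -1.11 without 3D replicates 1 and 2.

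Aldolase, which cleaves fructose bisphosphate, included the member with the largest fold change in 3D against 2D. ALDOC, known as the brain isoform, was read at 10.4, 13.4 and 14.3 CPM in 2D and 187, 174 and 168 in 3D, 13.5-fold higher (3.76 ± 0.37, adjusted p = 0.000897). The 3D libraries were close to each other here, and replicate 3 alone gave 3.72. ALDOC was at 89.9, 31.3 and 56.1 CPM in the animal model (2.22 ± 0.35 against 2D, adjusted p = 0.00473) and at 78.6, 74.3 and 76.4 in 3D control (2.59 ± 0.37 against 2D, adjusted p = 0.00885). All 9 of these libraries were above all 2D libraries. The call in 3D control was lost when any single 2D library was left out. The animal libraries were all below the 3D libraries, with a fall by 1.54 on the log2 scale (adjusted p = 0.00838), and a change of -0.86 with the GC offset that was not called.

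ALDOA, the isoform of muscle and most tumours, was read at 88.6, 94.6 and 90.3 CPM in 2D and 450.3, 550.0 and 235 in 3D (2.13 ± 0.30, adjusted p = 0.00210), with replicate 3 the lowest of 3D and a rise of 1.36 on it alone. ALDOA in the animal model was at 82.8, 65.8 and 57.3 CPM, below each 2D library without a call (adjusted p = 0.416), and in 3D control at 189.6, 171 and 188. It was lower in the animal model than in 3D (-2.54 ± 0.30, adjusted p = 0.000761), and the change was -1.79 without 3D replicates 1 and 2. The ALDOC/ALDOA ratio was 0.118, 0.142 and 0.159 in 2D, 0.416, 0.317 and 0.713 in 3D, 1.09, 0.476 and 0.979 in the animal model and 0.415, 0.433 and 0.406 in 3D control. No 2D library reached the ratio of any library of the other groups. Per kb ALDOA remained above ALDOC on average in each group, at 246 ± 96.2 against 89.0 ± 5.09 CPM per kb in 3D.

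**Figure D3:**
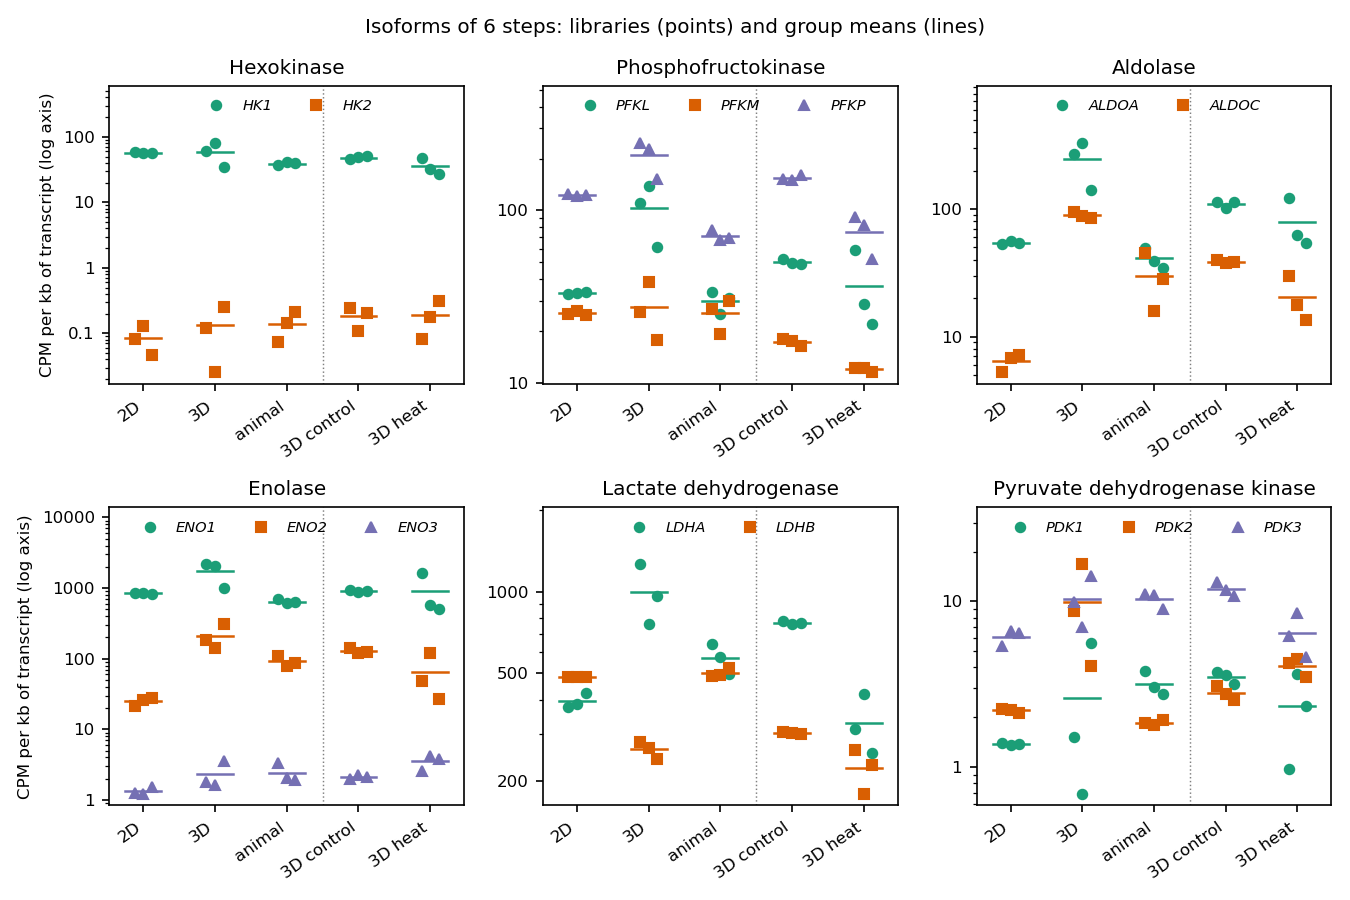
Level per kb of transcript (log axis) of the isoforms of 6 steps in the 5 groups, with a point for each library and a line for the group mean, and the later sequencing round to the right of the dotted line. ALDOC and ENO2 lie nearer to ALDOA and ENO1 in the 3D, animal and 3D control libraries than in 2D, LDHA and LDHB change order between 2D and the 3D groups, and HK2 and ENO3 stay far below HK1 and ENO1.

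In lower glycolysis 6 of 7 tested members rose in 3D, all but ENO3. GAPDH, the dehydrogenase often used as a reference gene, was read at 3053, 3178 and 3314 CPM in 2D and 12607, 10905 and 6214 in 3D (1.59 ± 0.26, adjusted p = 0.00376), and rose by 0.96 on replicate 3 alone. PGK1, the first ATP-forming enzyme, was at 1316, 1411 and 1439 CPM in 2D and 5290.1, 3791 and 3774 in 3D (1.59 ± 0.21, adjusted p = 0.00168), and rose by 1.44 on replicate 3 alone. PGAM1, the phosphoglycerate mutase, was at 150.0, 150.1 and 157 CPM in 2D and 408, 337 and 208 in 3D (1.02 ± 0.23, adjusted p = 0.0114), and rose by 0.44 on replicate 3 alone. None of these 3 genes overlapped between the groups, and PGK1 kept more of its rise on replicate 3 alone than the other 2. Animal libraries had GAPDH at 3146, 2631 and 3159.9 CPM, PGK1 at 1236, 1217 and 969 and PGAM1 at 116, 115 and 109.9, none called against 2D. Against 3D they fell there by 1.69, 1.87 and 1.44 on the log2 scale (adjusted p = 0.00205, 0.000606 and 0.00233). The changes were -1.07, -1.74 and -0.89 without 3D replicates 1 and 2. In 3D control PGK1 was at 3061, 2892 and 2786 CPM, GAPDH at 5145, 4912 and 4832 and PGAM1 at 205, 196 and 199, each above every 2D library but not called.

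Enolase, which forms phosphoenolpyruvate, was dominated by ENO1, the general isoform, at 2018, 1976 and 1949 CPM in 2D. It was at 5074, 4822 and 2331 CPM in 3D (0.995 ± 0.27, adjusted p = 0.0240), and on replicate 3 alone the change was 0.23 and not called (adjusted p = 0.0861). ENO2, the neuronal isoform, was at 60.2, 73.5 and 78.8 CPM in 2D and 515, 405 and 880.4 in 3D, 8.32-fold higher (3.06 ± 0.33, adjusted p = 0.00105). Here replicate 3 was the highest of the 3D libraries and alone gave 3.63. ENO2 was at 313, 225 and 245 CPM in the animal model (1.88 ± 0.31 against 2D, adjusted p = 0.00597) and at 404, 346 and 356 in 3D control (2.38 ± 0.45 against 2D, adjusted p = 0.0320). The call in 3D control was lost when any single library of 2D or 3D control was left out, although no library of the 2 groups overlapped. The animal libraries were below each 3D library (-1.18 ± 0.31, adjusted p = 0.0162), by -1.77 without 3D replicates 1 and 2. ENO1 was at 1627, 1426 and 1481 CPM in the animal model, below each 3D library (-1.39 ± 0.27, adjusted p = 0.00536). Its change was -0.64 without 3D replicates 1 and 2. The ENO2/ENO1 ratio was 0.0298, 0.0372 and 0.0405 in 2D, 0.101, 0.0841 and 0.378 in 3D, 0.193, 0.158 and 0.165 in the animal model and 0.185, 0.165 and 0.166 in 3D control, above 2D in all 9 libraries. ENO3, the muscle isoform, stayed between 1.85 and 6.34 CPM in all 15 libraries and was called in no comparison with all libraries.

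PKM, the pyruvate kinase of tumour and muscle cells, was read at 3149.6, 3128 and 3200.5 CPM in 2D and 8537, 10934 and 3801 in 3D (1.25 ± 0.33, adjusted p = 0.0209). On replicate 3 alone the change was 0.26 and not called (adjusted p = 0.0613). Its level in the animal model was 2711, 2974 and 2626 CPM, below each 2D library, and in 3D control 3536, 3462 and 3588, above each 2D library, without a call in either. PKM was lower in the animal model than in 3D (-1.44 ± 0.33, adjusted p = 0.00990), and the change was -0.47 without 3D replicates 1 and 2. PKLR, the liver and red cell gene, did not pass 1.29 CPM in any library. The count table gives 1 value for PKM, so its splice forms PKM1 and PKM2 are not separated.

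The isoforms of lactate dehydrogenase moved in opposite directions in 3D. LDHA, the muscle type that favours lactate formation, was read at 910.3, 929.9 and 1024 CPM in 2D and 3047, 1835 and 2336 in 3D (1.30 ± 0.23, adjusted p = 0.00449). LDHB, the heart type that favours the reverse reaction, was at 749, 747 and 746 CPM in 2D and 429.7, 409.5 and 373 in 3D (-0.93 ± 0.15, adjusted p = 0.00353). Neither gene overlapped between the groups, and on replicate 3 alone LDHA gave 1.29 and LDHB -1.01. In 3D control LDHA was at 1888, 1837 and 1846 CPM and LDHB at 466, 466 and 459, again on opposite sides of 2D without overlap, but neither passed the test (adjusted p = 0.119 and 0.148). In the animal model LDHA was at 1547, 1387 and 1203 CPM and LDHB at 751, 758 and 806, both above each 2D library and not called (adjusted p = 0.166 and 0.893). Against 3D, LDHA fell there by 0.77 and LDHB rose by 0.97 on the log2 scale (adjusted p = 0.0241 and 0.00198).

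The LDHB/LDHA ratio of CPM was 0.823, 0.803 and 0.729 in 2D, 0.141, 0.223 and 0.160 in 3D, 0.247, 0.254 and 0.249 in 3D control and 0.485, 0.547 and 0.670 in the animal model. The untreated 3D libraries of both rounds lay below all animal libraries, and these below all 2D libraries. The ratio in 3D was 4.58-fold lower than in 2D, by geometric means. Per kb LDHB was ahead of LDHA in 2D, at 486 ± 0.948 against 395 ± 25.1 CPM per kb, and behind it in 3D, at 263 ± 18.8 against 996 ± 252. A ratio of 2 genes within a library does not depend on the library's scaling. LDHA and LDHB have similar transcript GC contents (44.0 and 46.5%) but differ in transcript length (2416 and 1538 bases). The GC contents lie further apart for PFKM and PFKL (52.7 and 63.5%) and for SLC16A3 and SLC16A1 (62.7 and 43.5%). The part of GC content and length in the ratios was not tested.

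Lactate leaves the cell through monocarboxylate transporters. SLC16A3 (MCT4), the exporter of glycolytic cells, was read at 197, 189.9 and 199 CPM in 2D and 861, 1006 and 620.1 in 3D (2.04 ± 0.20, adjusted p = 0.000868), with a rise of 1.66 on replicate 3 alone. It was at 191, 188 and 165 CPM in the animal model, as in 2D (log2 fold change -0.11 ± 0.19, not called), and at 408, 383 and 401 in 3D control, above each 2D library without a call. SLC16A1 (MCT1), the more general carrier, was at 57.1, 57.1 and 56.4 CPM in 2D and 32.3, 21.4 and 67.5 in 3D, below 2D in replicates 1 and 2 and above it in replicate 3, and was not called. The SLC16A3/SLC16A1 ratio was 3.44, 3.32 and 3.53 in 2D and 26.6, 47.0 and 9.19 in 3D, with its lowest 3D value in replicate 3. It was 6.65, 6.85 and 7.58 in 3D control and 3.29, 3.59 and 2.82 in the animal model. The untreated 3D libraries of both rounds were thus all above 2D, and the animal libraries overlapped it. Against 3D, SLC16A3 fell by 2.15 in the animal model (adjusted p = 0.000374), and the change was -1.79 without 3D replicates 1 and 2.

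Of the kinases that switch off pyruvate dehydrogenase and their target, PDK2 rose in 3D, and the 3D libraries differed widely among themselves. PDK2 was read at 7.67, 7.65 and 7.32 CPM in 2D and 30.3, 57.6 and 13.9 in 3D (2.12 ± 0.43, adjusted p = 0.00796), and rose by 0.88 on replicate 3 alone. PDK1 was at 19.9, 19.2 and 19.7 CPM in 2D and 21.5, 9.75 and 79.7 in 3D, not called with the 3 libraries (adjusted p = 0.281) and higher by 2.02 on replicate 3 alone (adjusted p = 0.000105). PDK3 was at 10.3, 12.7 and 12.4 CPM in 2D and 19.1, 13.5 and 27.5 in 3D, not called with the 3 libraries (adjusted p = 0.0799) and higher by 1.22 on replicate 3 alone. Among the 3D libraries PDK2 was highest where PDK1 was lowest. The transcript GC content is 59.8% for PDK2 and 39.8% for PDK1, in a range of 39.8 to 63.5% over the members. The PDK1/PDK2 ratio was 0.711, 0.170 and 5.71 in the 3D libraries, on both sides of the 2.58, 2.50 and 2.68 of 2D.

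In the groups without a library that stood apart, the PDK1/PDK2 ratio was above 2D. It was 8.37, 7.02 and 5.90 in the animal model and 5.04, 5.39 and 5.11 in 3D control. PDK1 was at 53.6, 43.2 and 39.1 CPM in the animal model and 53.3, 51.1 and 44.9 in 3D control, above each 2D library in both, but not called (adjusted p = 0.268 and 0.444). PDK3 was at 21.3, 20.9 and 17.3 CPM in the animal model and 25.3, 22.4 and 20.6 in 3D control, also above each 2D library and not called. PDHA1, the catalytic subunit that the kinases phosphorylate, was at 56.8, 58.3 and 59.0 CPM in 2D and 67.4, 63.9 and 43.5 in 3D, and was not called in any comparison with all libraries. PDK2 fell by 2.36 in the animal model against 3D (adjusted p = 0.00403), to 6.38, 6.13 and 6.61 CPM. The change was -1.14 without 3D replicates 1 and 2 and -1.28 with the GC offset. Per kb PDK3 led the kinases in every group on average, with 6.13 ± 0.678 CPM per kb in 2D. The PDK1 value per kb is divided by a transcript model of 14193 bases, and a shorter model would raise it.

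The pentose phosphate members PGD (the second NADPH-forming dehydrogenase), TKT (transketolase) and TALDO1 (transaldolase) were not called in 3D against 2D with the 3 libraries, where 0 of 3 also passed at an unadjusted p below 0.05 and in DESeq2. PGD was read at 687, 672 and 678 CPM in 2D and 1098, 1351 and 416 in 3D. TKT was at 989, 987 and 968 CPM in 2D and 1638, 2417 and 758 in 3D. TALDO1 was at 632, 605 and 634 CPM in 2D and 1051, 1289 and 419 in 3D. All 3 were above 2D in replicates 1 and 2 and below it in replicate 3, on which alone each fell, by 0.71, 0.38 and 0.58 on the log2 scale (adjusted p = 0.00125, 0.0122 and 0.00528). In 3D control PGD was at 459, 474 and 496 CPM. TKT was at 760.1, 779 and 822 CPM there, and TALDO1 at 448, 470.2 and 475. Animal libraries had PGD at 507, 570.2 and 579 CPM. TKT was at 834, 822 and 748 CPM there, and TALDO1 at 351, 421 and 371. For all 3 genes each library of both groups was below each 2D library, and none was called. TKT and TALDO1 were lower in the animal model than in 3D (-0.95 and -1.22, adjusted p = 0.0499 and 0.0211), with overlapping libraries. The changes were 0.066 and -0.15 without 3D replicates 1 and 2. Both calls were lost without any single animal library, without 3D replicate 1 or 3D replicate 2 alone, and with the GC offset.

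The gluconeogenic members FBP1 (fructose bisphosphatase) and PCK2 (mitochondrial PEP carboxykinase) were not called in 3D against 2D by edgeR, while DESeq2 called both higher and 1 of the 2 passed at an unadjusted p below 0.05. FBP1 did not pass 5.11 CPM in any library. PCK2 was at 24.8, 25.2 and 24.8 CPM in 2D and 52.0, 62.1 and 27.0 in 3D, with replicate 3 nearest to 2D, at 26.0, 25.6 and 26.6 in 3D control, and at 21.3, 14.8 and 21.3 in the animal model. It was lower in the animal model than in 3D (-1.25 ± 0.30, adjusted p = 0.0118), a call that was lost without 3D replicates 1 and 2 (-0.51) and with the GC offset.

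Of the glycogen members, 2 rose and 1 fell in 3D. GYS1, the muscle-type glycogen synthase, was read at 123, 131 and 125 CPM in 2D and 381, 370.1 and 237 in 3D (1.34 ± 0.20, adjusted p = 0.00260). PGM1, which links glucose 1-phosphate to glucose 6-phosphate, was at 72.1, 68.7 and 70.0 CPM in 2D and 166, 181 and 101 in 3D (1.05 ± 0.22, adjusted p = 0.00837). PGM2, a phosphopentomutase of the same family, was at 41.5, 40.2 and 37.8 CPM in 2D and 15.3, 9.46 and 21.6 in 3D (-1.39 ± 0.30, adjusted p = 0.00952). These 3 genes did not overlap and kept their call on replicate 3 alone, at 0.90, 0.52 and -0.89. GBE1, the branching enzyme, was at 91.1, 95.6 and 92.4 CPM in 2D and 124, 74.6 and 193 in 3D, and UGP2, which makes UDP-glucose, at 121, 124 and 126 and 84.1, 48.7 and 174. Both were lowest in 3D replicate 2 and highest in replicate 3, on which alone they were called higher (1.05 and 0.48). In 3D control GYS1 was at 211, 209 and 219 CPM, GBE1 at 174, 166 and 152 and UGP2 at 155, 151 and 144, each above every 2D library and not called. GYS1 in the animal model was at 83.9, 86.2 and 94.7 CPM, below each 2D library and not called. Against 3D, GYS1 fell there by 1.86 and PGM1 by 1.01, and PGM2 rose by 1.52 (adjusted p = 0.000571, 0.00715 and 0.00514). The changes were -1.44, -0.51 and 1.002 without 3D replicates 1 and 2.

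**Figure D4:**
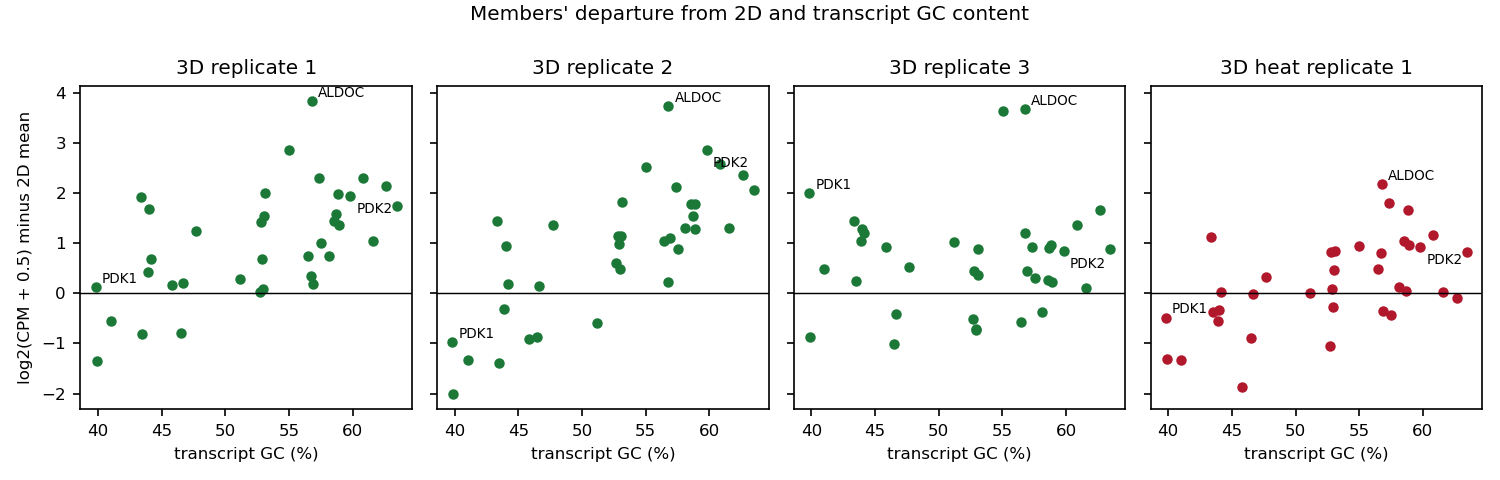
Departure of each member from its 2D mean, as log2(CPM + 0.5), against the GC content of its longest protein-coding transcript in 4 libraries. In 3D replicates 1 and 2 and 3D heat replicate 1 the points rise with GC content, with rank correlations of 0.603, 0.753 and 0.565, and in 3D replicate 3 they do not, with 0.0342.

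Across the 36 members the rank correlation between departure from 2D and transcript GC was 0.603 and 0.753 in 3D replicates 1 and 2, 0.0342 in 3D replicate 3 and 0.565 in 3D heat replicate 1. In the other 8 libraries outside 2D it lay between -0.408 and 0.107. The members are points of 1 library and share its depth and base composition, so the values are descriptions. The median departure was 1.02, 1.12 and 0.68 in the 3D libraries, -0.03 to -0.15 in the animal libraries and 0.30 to 0.38 in 3D control. With GC content and transcript length entered as an offset that follows the trend of each library, the members' median log2 fold change in 3D against 2D was 0.58, and 17 were called higher and 3 lower, against 14.3% and 18% of all genes. PFKP, ENO1 and PKM were not called with that offset, and PDK1, PDK3 and GBE1 were called higher and TALDO1 lower.

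Heat treatment was compared with untreated 3D cells of the same round. LDHA was read at 1888, 1837 and 1846 CPM in 3D control and 753, 1014 and 616 in 3D heat, 2.33-fold lower (-1.22 ± 0.35, adjusted p = 0.138 in edgeR, not called). PFKP was at 419, 418 and 445 CPM in control and 252, 229 and 145 in heat (-1.03 ± 0.31, adjusted p = 0.144). SLC2A3 was at 1.94, 1.81 and 1.39 CPM in control and 0.0955, 0.823 and 0.285 in heat, values that rest on few reads. In these 3 genes every heat library was below every control library, and DESeq2 called all 3.

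The libraries of the 2 groups did not overlap for 13 members that were lower and 2 that were higher with heat, where 19.1% and 17.5% of all genes did the same. ALDOC was at 59.0, 34.9 and 26.9 CPM, GYS1 at 130.1, 155 and 86.7, UGP2 at 49.1, 103 and 80.4 and GBE1 at 63.5, 125 and 96.9, all below the control libraries given above. ENO2 was at 136, 337 and 76.0 CPM, SLC16A3 at 184, 322 and 99.9, PDK3 at 11.9, 16.5 and 8.85 and LDHB at 403, 277 and 353, also below. ENO3 and PDK2 were the 2 that were higher, PDK2 at 14.7, 15.3 and 12.0 CPM against 10.6, 9.47 and 8.75 in control. None of these passed edgeR's test with all libraries and no offset. With the GC offset, edgeR called ALDOC and UGP2 lower (adjusted p = 0.0136 and 0.0331) and none of the others named here.

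3D heat replicate 1 departed from replicates 2 and 3 for several abundant enzymes. GAPDH was at 10072, 2697 and 2651 CPM, TPI1 at 2727, 639.9 and 546, PKM at 6504, 1934 and 1999.6 and ENO1 at 3846, 1367 and 1171, so replicate 1 was above the control libraries and replicates 2 and 3 below them. Without replicate 1, GAPDH fell by 0.89, TPI1 by 0.98, PKM by 0.84 and ENO1 by 0.75 on the log2 scale (adjusted p = 0.00643, 0.00748, 0.00682 and 0.0124). PGK1, at 3036, 1249 and 949 CPM, fell by 1.40 (adjusted p = 0.00598). All 7 upper glycolysis members were among the 20 lower in that fit, with 5 members of lower glycolysis, and the single member that rose was ENO3. The remaining heat libraries still differed from each other in ENO2 and SLC16A3, which were not called in that fit.

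**Figure D5:**
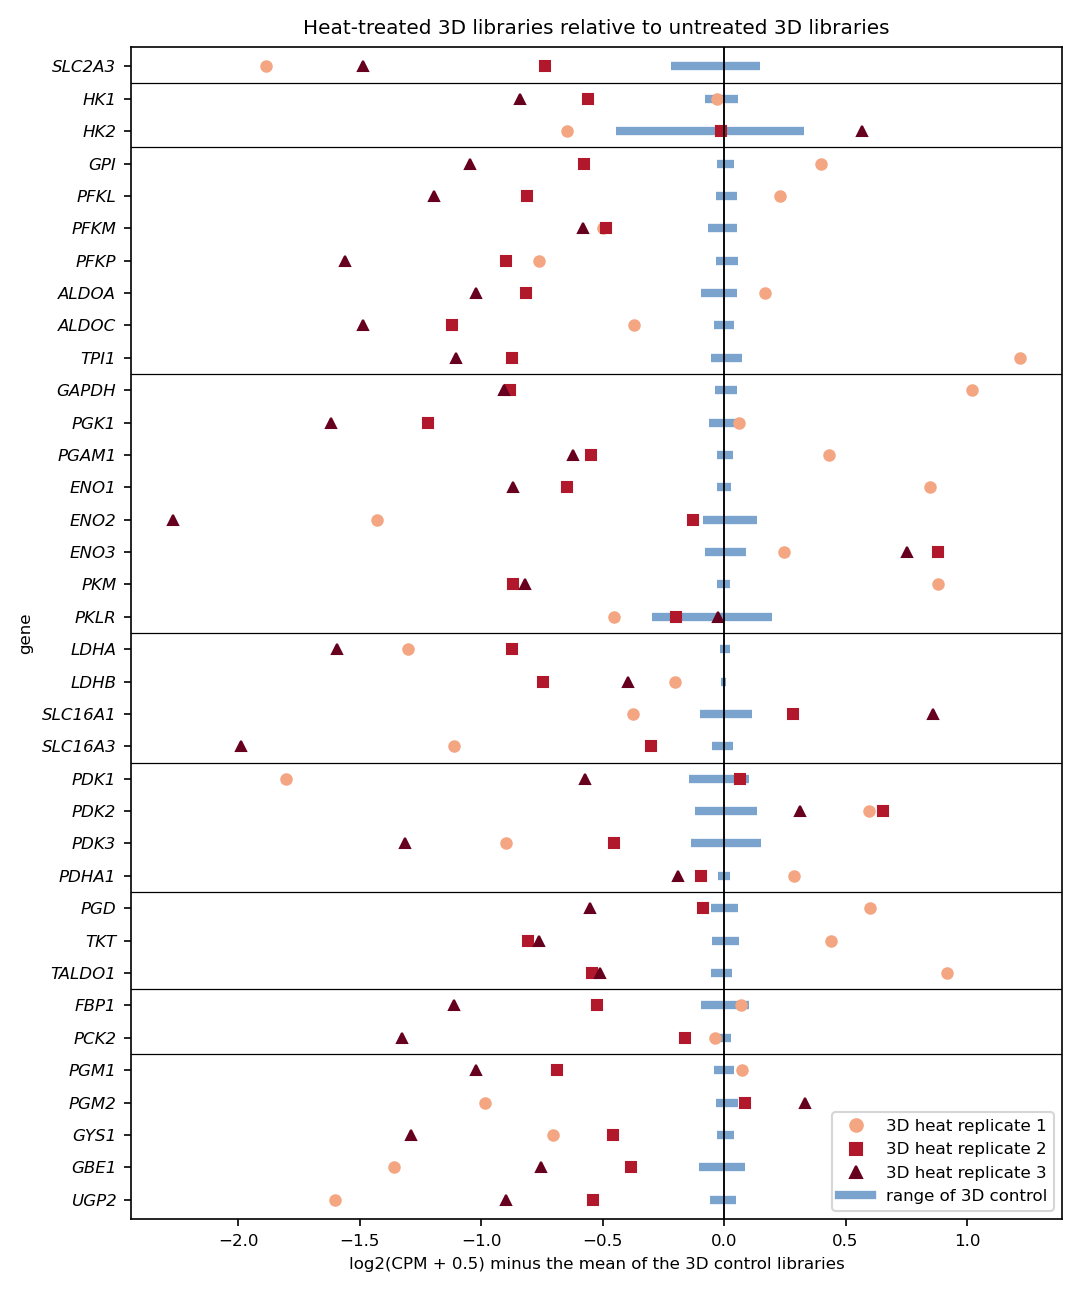
Each heat-treated 3D library (symbols) relative to the mean of the untreated 3D libraries, on the log2(CPM + 0.5) scale, for each member (rows), with the range of the control libraries as a blue bar. Replicates 2 and 3 lie left of the bar for most glycolysis members, replicate 1 lies right of it for GPI, TPI1, GAPDH, ENO1 and PKM, and all 3 lie left for PFKP, ALDOC, LDHA and GYS1.

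Isoform ratios were compared in the same way with heat. The LDHB/LDHA ratio was 0.535, 0.273 and 0.573 in 3D heat against 0.247, 0.254 and 0.249 in 3D control, higher in every heat library. The PDK3/PDK2 ratio was 0.812, 1.07 and 0.739 in heat against 2.39, 2.37 and 2.35 in control, and the SLC16A3/SLC16A1 ratio 4.21, 4.67 and 0.967 against 6.65, 6.85 and 7.58, both lower in every heat library. The ALDOC/ALDOA ratio was 0.288, 0.336 and 0.300 in heat against 0.415, 0.433 and 0.406 in control, also lower in each. Over the 12 pairs the groups did not overlap for 1 pair that was higher and 5 that were lower with heat. The counts were 3 and 3 in 3D against 2D, 7 and 2 in the animal model against 2D, 4 and 1 in the animal model against 3D, and 7 and 3 in 3D control against 2D. No share over other pairs of genes was computed beside these counts. In an exact two-sided permutation test over libraries no ratio can go below p = 0.1 with 3 against 3, and over the 60 tests the smallest adjusted p was 0.167, so none passed.

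Other genes of carbohydrate metabolism were counted from lists drawn up beside the members, of which 65 genes had a row and 50 were tested in the first round. In 3D against 2D 12 were higher and 11 lower, with a median log2 fold change of 0.17, against the 20% and 12.9% of all genes. Without 3D replicates 1 and 2, 16 of 51 were higher and 14 lower, against 22.9% and 23.6%, and the median turned to -0.10. In glucose entry 1 of 5 was higher (2 without 3D replicates 1 and 2). With all libraries this was SLC2A1 (GLUT1), a widely expressed glucose transporter, at 259, 267 and 266 CPM in 2D and 1500.2, 895 and 1370.0 in 3D (2.22 ± 0.25, adjusted p = 0.00112). It was at 794, 733 and 748 CPM in 3D control, called there too (1.52 ± 0.32, adjusted p = 0.0433). HKDC1, a hexokinase-domain protein, was read at 68.6 to 174 CPM over the 15 libraries, while HK3 had 0 reads in each 2D, 3D and 3D control library. Per kb of transcript, HKDC1 was at 42.4 ± 1.18 CPM in 2D and 40.2 ± 6.05 in 3D, against 57.3 ± 1.64 and 58.7 ± 23.2 for HK1.

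Of 7 other glycolysis genes, 3 were higher and 2 lower in 3D (2 and 2 without 3D replicates 1 and 2). PFKFB4, which makes the activator fructose 2,6-bisphosphate, was at 9.32, 13.4 and 15.1 CPM in 2D and 205, 155 and 203 in 3D (14.5-fold, adjusted p = 0.000642), and at 45.4, 37.2 and 31.0 in the animal model and 85.1, 69.2 and 77.0 in 3D control, called in all 3. PFKFB3, of the same family, was at 82.4, 93.0 and 89.1 CPM in 2D and 246, 253 and 264 in 3D (1.49 ± 0.22, adjusted p = 0.00251). TIGAR, which removes the same activator, fell to 14.4, 10.4 and 8.41 CPM from 29.3, 25.9 and 29.1 (adjusted p = 0.00520). In lactate and pyruvate handling 3 of 14 were higher and 5 lower (4 and 3 without 3D replicates 1 and 2), with the largest changes in LDHD, a mitochondrial D-lactate dehydrogenase (11.6-fold higher), and in BSG, the chaperone of SLC16A3, at 479.6, 477 and 492 CPM in 2D and 2177, 2132 and 1192 in 3D (1.88 ± 0.23, adjusted p = 0.00143). The 5 that fell included DLAT, the acetyltransferase core of pyruvate dehydrogenase (-1.09 ± 0.16, adjusted p = 0.00260).

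In the other pentose phosphate genes 2 of 7 were higher and 2 lower in 3D, and 1 and 5 without 3D replicates 1 and 2. RBKS (ribokinase, 1.54 ± 0.31) and RPE (ribulose phosphate epimerase, -1.38 ± 0.33) had the largest changes among the called genes, at 0.94 and -0.73 without these replicates. In the other glycogen genes 3 of 15 were higher and 2 lower, close to the shares of all genes, and 7 and 4 without 3D replicates 1 and 2. PPP1R3C, which brings a phosphatase to glycogen, was at 15.5, 21.8 and 19.1 CPM in 2D and 81.1, 51.4 and 146 in 3D (2.28 ± 0.39, adjusted p = 0.00419), and PHKA2, a phosphorylase kinase subunit, rose by 1.66 (adjusted p = 0.0154). On replicate 3 alone these rises were 2.96 and 2.43. In gluconeogenesis 0 of 2 tested genes were called by edgeR, 2 were higher at an unadjusted p below 0.05, and DESeq2 called both.

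Hypoxia targets outside carbohydrate metabolism were counted beside the members, and their part in the members' values was not tested. In 3D against 2D 9 of 10 were higher and 0 lower, against 20% and 12.9% of all genes (DESeq2 gave the same counts for the list, as did an unadjusted p below 0.05). The median log2 fold change of the list was 2.62, and 3.06 without 3D replicates 1 and 2. ANGPTL4 was at 27.3, 33.0 and 35.2 CPM in 2D and 670.5, 608 and 869.9 in 3D, and EGLN3, a prolyl hydroxylase, at 0.533, 0.580 and 0.801 and 13.0, 8.44 and 20.1. In the animal model 4 of 10 were higher than in 2D, against 7.78% of all genes. EGLN3 was there at 18.8, 10.9 and 9.31 CPM and CA9, a carbonic anhydrase, at 239, 83.1 and 174 CPM against 12.8 to 22.4 in 2D. In 3D control 3 of 10 were called higher, against 0.93% of all genes. The libraries of all 10 lay above 2D, as did those of 32.2% of all genes. A further list of 8 genes held the hypoxia factors HIF1A, EPAS1, ARNT and HIF3A with their regulators VHL, EGLN1, EGLN2 and HIF1AN. Of 7 tested, 0 were higher and 3 lower in 3D by edgeR, against 20% and 12.9% of all genes. The median log2 fold change of this list was -0.57, and -0.55 without 3D replicates 1 and 2. HIF1A was at 141, 142 and 143 CPM in 2D and 39.2, 17.1 and 83.7 in 3D (-1.62 ± 0.48, adjusted p = 0.0321; -0.77 on replicate 3 alone), and EPAS1 at 261, 268 and 257 and 158, 182 and 161 (-0.69 ± 0.15, adjusted p = 0.0102). At an unadjusted p below 0.05, 1 gene of this list was higher, and DESeq2 called the same number. These are transcript levels, and the activity of the factors was not measured.

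The animal libraries also held more signal from 5 of the 6 marker lists beside that of the line. The line itself derives from a hepatocellular carcinoma, and which cells gave the hepatocyte markers was not tested. Summed over each list, fibroblast and pericyte markers (9 genes) were at 163 to 461 CPM in the animal libraries against 64.5 to 68.9 in 2D, hepatocyte markers (7 genes) at 202 to 385 against 6.28 to 8.22, endothelial markers (6 genes) at 5.79 to 16.6 against 1.42 to 1.71, and macrophage and leukocyte markers (9 genes) at 165 to 220 against 103 to 109. Muscle and fat markers (7 genes) were lower, at 4.90 to 6.20 CPM against 14.2 to 15.9, and red blood cell markers (6 genes) were at 0.721 to 6.33 CPM against 0.107 to 0.422. THY1, EMCN and TYROBP, 1 gene each of the fibroblast, endothelial and macrophage lists, had no reads in any animal library. The macrophage list was also higher in 3D, at 388 to 494 CPM, of which 374 to 472 CPM were CD68, a lysosomal protein that is not restricted to macrophages. Whether reads of host tissue were removed is not given in the sources used here. The part of other cells in the animal values of ALDOC, ENO2 and PDK1 was not tested, and in bulk libraries fewer cells of a type and less RNA per cell cannot be told apart.

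Some members share sequence with other loci. GENCODE 29 names 107 pseudogenes after 14 of the members, 62 of them after GAPDH, 13 after PGAM1 and 6 after LDHA, and none has a row in the count table, so the values of GAPDH and PGAM1 are uncertain to the extent that short reads were split among copies. Exons of 8 members overlap a gene on the opposite strand (PFKM with SENP1, TPI1 with SPSB2, ENO3 with PFN1, PKLR with HCN3, SLC16A3 with CSNK1D, PDK2 with SAMD14, PDHA1 with MAP3K15 and PGM1 with ITGB3BP). ALDOA overlaps AC093512.2 and PGK1 overlaps ATP7A on the same strand. The strand setting of the counting is not given in the sources used here, so reads of such partners cannot be told apart where they overlap.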

How the data were processed

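RNA of MHCC-97H cells was extracted with a spin-column kit and sequenced from random-primed cDNA as single-end reads of 50 bases on a BGIseq500, per the labels' protocols. The deposited table holds raw read counts per gene symbol for the 15 libraries, and the authors' processing notes name HISAT2 and hg19 without versions. Which program, annotation and strand setting made the counts, and whether host reads were removed, is not given in the sources used here. Of 19143 rows, 1443 were 0 throughout, and 27 were named by a date (0.168% of counts) and could not be matched to a gene. The counts were tested in edgeR 4.0.16 (R 4.3.3; filterByExpr by group, TMM, robust quasi-likelihood F-test, Benjamini-Hochberg over all genes tested), with calls at an adjusted p below 0.05. The 9 first-round libraries were fitted together, the 6 second-round libraries apart, and 3D control against 2D over all 15. SE is the log2 fold change divided by the square root of F. CPM levels carry TMM factors of the 15 libraries together, so they can differ slightly from fold changes fitted within a round. Ratios of isoforms used CPM with 0.5 reads added to each gene, and exact permutation tests in SciPy 1.17.1. Per-kb values used the longest protein-coding transcript of GENCODE 29, and promoters and their coordinates come from RefSeq on GRCh38.p14. Alternatives were DESeq2 1.42.0, other scalings and filters, a replicate block, an offset that follows each library's GC and length trends (splines, 5 df), and libraries left out. The scripts were tested on simulated counts with known changes. Of genes changed 2-fold, the edgeR test recovered 7% in 3D against 2D, 1% with heat and 3% in 3D control against 2D. Of genes changed 4-fold it recovered 69%, 13% and 62%. The simulated counts had 1 spread per gene in all groups and no trend with GC content, unlike these libraries. The recovered shares are therefore only a rough guide to these fits. A gene that was not called may still have changed.

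The members, lists, alternatives and the libraries to leave out together were chosen with earlier results of these data known. Values are given for each member called, with its isoform partners, and by range for the others. Of each other list, the called genes with the 2 largest fold changes and a mean of at least 5 CPM are named. TIGAR, DLAT, HKDC1, HK3 and EPAS1 were named after their values were seen, and a few genes that the rule would name are not reported here. Replicates with the same number did not deviate together (correlations of -0.242 to 0.182 between same-numbered libraries), so libraries were not paired. The total counts of 12605539 to 18634295 limit the precision for genes below about 1 CPM.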

Additional observations from a re-analysis of the deposited data

How the results depend on the processing

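In 3D against 2D, leaving out single libraries gave 13 to 22 members higher (17 with all) and 2 to 4 lower (2 with all), and leaving out 3D replicates 1 and 2 together gave 7 lower. The all-gene counts with single libraries left out were 1132 to 4560 higher and 663 to 4933 lower, of 13151 to 13200 tested. Leaving out 3D replicates 1 and 2 together turned PGD (-0.71), TKT (-0.38), TALDO1 (-0.58) and UGP2 (0.48), and the GC and length offset turned TALDO1 (-0.60). In animal against 2D, 2 to 2 were higher over the single libraries left out and 4 with the GC offset, while 0 to 0 were lower (1 with all), with 4 under the GC offset and 0 with all 15 libraries in 1 fit. Over all genes, single libraries left out gave 446 to 768 higher and 199 to 386 lower of 13054 to 13200 tested. The GC offset gave 1850 and 1646 of 12925. In animal against 3D, 2 to 5 were higher (2 with all) and 16 to 23 lower (20 with all). Over all genes, single libraries left out gave 1377 to 5596 higher and 1943 to 4536 lower of 13054 to 13178 tested. Leaving out 3D replicates 1 and 2 turned SLC16A1 (-0.28), PDK1 (-0.83), PDK3 (-0.49), PGD (0.40), TKT (0.066) and UGP2 (-0.77), and the GC offset turned UGP2 (-0.60). With heat, single libraries left out gave 0 to 1795 of all genes higher and 0 to 1896 lower, of 12764 to 12924 tested. The GC offset gave 707 and 717 of 12627. Of the members, single libraries left out gave 0 to 1 higher and 0 to 20 lower (0 and 0 with all). DESeq2 and a fit of all 15 libraries gave 3 lower and the GC offset 6, and over single libraries left out TPI1 ran from -0.98 (without 3D heat replicate 1) to 0.53, GAPDH from -0.89 to 0.38, ENO1 from -0.75 to 0.30 and TALDO1 from -0.53 to 0.38. 3D control against 2D gave 4 higher and 1 lower in DESeq2, and 0 to 1 higher and 0 to 0 lower with single libraries left out (2 and 0 with all). Over all genes, single libraries left out gave 4 to 20 higher and 0 lower of 13558 to 13568 tested. The cause of these changes was not tested. No isoform ratio whose groups did not overlap changed direction under another pseudocount. Leaving out a library cannot turn such a ratio, because its groups were picked as not overlapping.

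With a replicate block, 17 members were higher and 2 lower in 3D against 2D, 2 and 0 in animal against 2D, 2 and 19 in animal against 3D, and 0 and 0 with heat. The all-gene counts were 1909 and 1356, 709 and 322, and 2250 and 2387 of 12925, and 22 and 8 of 12627 with heat. The block was fitted although the numbers did not pair the libraries. The median fold change of all genes moved with the scaling, to 0.11 in 3D against 2D and 0.13 with heat under RLE factors, and to 0.21 in animal against 3D under upper-quartile factors.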

Other observations

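Among the other carbohydrate genes the animal model differed from 2D in 5 of 50 by edgeR, 4 higher and 1 lower, shares near the 7.78% and 4.25% of all genes. PYGL, the liver glycogen phosphorylase that releases glucose 1-phosphate, was read at 11.7, 13.4 and 13.3 CPM in 2D and 79.1, 37.8 and 47.8 in the animal model (2.10 ± 0.50, adjusted p = 0.0257). GYG2, a glycogenin that primes glycogen in liver, was at 4.91 to 5.97 CPM in 2D and 2.71, 1.91 and 3.36 in the animal model (-1.03 ± 0.29, adjusted p = 0.0485). PDK4, a pyruvate dehydrogenase kinase linked to fasting, was at 1.49, 1.11 and 1.28 CPM in 2D and 8.78, 12.0 and 3.30 in the animal model (2.63 ± 0.53, adjusted p = 0.0134). PDK4 was at 1.40, 2.33 and 3.56 CPM in 3D and 6.90, 6.24 and 4.52 in 3D control. Hepatocyte markers were also higher in the animal libraries, and their part in these values was not tested.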
